A study of Homo sapiens with 4 samples.

Results

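Histone variant genes are the genes of histones made outside the S phase supply, and the 9 described here are *H3F3A* and *H3F3B* (H3.3), *H2AFZ* and *H2AFV* (H2A.Z), *H2AFX* (H2AX), *H2AFY* and *H2AFY2* (macroH2A), *H2AFJ* (H2A.J) and *H1FX* (a linker histone). They were taken by symbol from the 40205 genes in the expression tables, in which all 9 were present. *H3F3A* was selected on its own measured value, a lower level after circZFR silencing, so its values in that contrast and those of its sequence copies are a description with no test, and *H3F3B* was set beside it because it encodes the same protein. The other 8 were tested within a fit over the 13885 genes that passed the filter on low values. Symbols follow the expression tables. The current names are H3-3A, H3-3B, H2AZ1, H2AZ2, H2AX, MACROH2A1, MACROH2A2, H2AJ and H1-10.

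RNA-seq was performed on 4 libraries of a lung cancer cell line, 2 from cells given a negative control siRNA (NC 1 and NC 2) and 2 from cells given an siRNA against circZFR (si-circZFR 1 and si-circZFR 2), 24 h after transfection. CircZFR is a circular RNA made from exons of *ZFR*, and the comparison asks which mRNAs differ after its silencing. The labels do not say whether the 2 libraries of a group came from separate cultures, so p-values measure the spread between these libraries, which may be technical, and with 2 against 2 an exact permutation test cannot go below p = 0.333. The labels name the line H1299 and the series' design text A549. A549 is known for high expression of NRF2 targets. Among these, *AKR1B10* was at 1271 to 1747 RPKM (reads scaled by gene length and library depth) in the 4 libraries, *AKR1C1* at 505 to 620, and *NQO1* at 355 to 523. *ALDH1A1*, also known to be high in A549, was at 738 to 1443. Which of the 2 lines was used was not settled from these genes. *FGB*, another A549 gene, was at 0.761 to 2.64, the fibroblast marker *COL1A1* at 0.553 to 2.09, the endothelial marker *PECAM1* at 0 to 0.0265 and the leukocyte marker *PTPRC* at 0.

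The libraries held 11040050 to 12816868 reads, of which 98.2% to 98.5% lay on listed genes. NC 2 differed from NC 1 with gene length: across the 13885 genes tested, Spearman's rho between log2 length and the difference NC 2 minus NC 1 was -0.34, against 0.019 for si-circZFR 2 minus si-circZFR 1. Between log2 length and the difference of si-circZFR minus NC, rho was 0.29, so shorter genes tended to be lower after silencing. These are descriptions across genes, which are not independent replicates. The mRNA of *ZFR*, the gene that hosts the circle, was at 26.0 (NC 1) and 31.9 (NC 2) scaled RPKM, which is RPKM divided by a factor per library, and after silencing it was at 5.26 (si-circZFR 1) and 4.63 (si-circZFR 2). Its log2FC (si-circZFR minus NC, on the log2(scaled RPKM + 1) scale) was -2.33 ± 0.17 (SE, n = 2 per group; limma, Benjamini-Hochberg FDR 0.0387). Values are given per gene, so any reads of the circle cannot be told from those of the linear mRNA. By RT-PCR, the article detected no effect of its circZFR siRNA on *ZFR* in its cell lines.

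Canonical histones are made in S phase from clustered, intronless genes whose mRNAs end in a stem-loop, whereas replacement histones are made throughout the cell cycle from genes outside these clusters, most with polyadenylated mRNAs. H3.3 is placed by the HIRA complex in transcribed genes and by DAXX and ATRX at telomeres and pericentric repeats. H2A.Z sits beside transcription start sites and is exchanged by the SRCAP and p400 complexes, H2AX is phosphorylated at DNA breaks, macroH2A carries a large globular domain and marks silent chromatin, and linker histones bind the DNA that enters and leaves the nucleosome. *H3F3A* left many processed pseudogenes, intronless copies of its mRNA, so the reads that carry its values need a look at sequence first.

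The coding sequences of *H3F3A* (GRCh38, chr1:226061831-226072019, plus strand, 4 exons) and *H3F3B* (chr17:75776434-75779779, minus strand, 4 exons) differ at 88 of 411 bases and at 79 of 137 codons, the stop codon counted, and at 0 residues. Reads can therefore tell the H3.3 genes from each other. They can rarely tell *H3F3A* from its copies, which is why the stretch below is shown: codons 51 to 100 of the coding sequence in *H3F3A*, in 3 copies, in *H3F3B* and in *H3F3C*, 5′ to 3′, with bases that differ from *H3F3A* in capitals. The copies lie at chr2:174720058-174720207 (*H3F3AP4*, plus strand), chr4:139698255-139698404 (*H3F3AP6*, minus strand) and chr13:71675214-71675363 (*H3F3BP1*, plus strand), and *H3F3C*, the gene of H3.5, lies on the minus strand of chromosome 12.
H3F3A: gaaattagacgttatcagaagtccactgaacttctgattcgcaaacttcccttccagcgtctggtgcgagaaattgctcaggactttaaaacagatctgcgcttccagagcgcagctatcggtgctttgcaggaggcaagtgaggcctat
H3F3AP4: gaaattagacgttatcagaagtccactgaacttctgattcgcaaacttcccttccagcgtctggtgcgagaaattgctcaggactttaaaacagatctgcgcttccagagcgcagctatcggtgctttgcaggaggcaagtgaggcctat
H3F3AP6: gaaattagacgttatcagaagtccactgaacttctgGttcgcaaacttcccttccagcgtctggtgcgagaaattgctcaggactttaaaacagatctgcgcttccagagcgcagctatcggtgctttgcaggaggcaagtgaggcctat
H3F3BP1: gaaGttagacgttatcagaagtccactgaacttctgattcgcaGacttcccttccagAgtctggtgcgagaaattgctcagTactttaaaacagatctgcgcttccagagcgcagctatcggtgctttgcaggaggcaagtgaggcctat
H3F3B: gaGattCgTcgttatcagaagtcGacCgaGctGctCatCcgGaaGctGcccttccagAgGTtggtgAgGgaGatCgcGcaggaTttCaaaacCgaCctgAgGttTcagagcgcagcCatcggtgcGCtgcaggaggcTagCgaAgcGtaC
H3F3C: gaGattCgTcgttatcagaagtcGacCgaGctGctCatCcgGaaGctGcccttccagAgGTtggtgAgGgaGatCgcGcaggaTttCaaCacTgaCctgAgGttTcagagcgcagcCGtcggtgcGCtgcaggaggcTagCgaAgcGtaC

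Within these 150 bases, *H3F3AP4* differed from *H3F3A* at 0 positions, *H3F3AP6* at 1, *H3F3BP1* at 4, *H3F3B* at 35 and *H3F3C* at 37. Over the whole transcript, 88.5% of the 971 windows of 100 bases in *H3F3A* were found without a mismatch at another place in GRCh38, against 1.34% for *H3F3B*, 1.95% for *H2AFV* and 0% for the other 6 genes. The alignment to the genome gave 19 other loci that cover part of the *H3F3A* coding sequence over at least 150 bases, 5 of them over 95% identical. *H3F3AP4* matched over 1042 aligned columns with 0 mismatches and 1 gap (99.9%), *H3F3AP6* at 99.1% and *H3F3BP1*, in spite of its name, at 97.2% to *H3F3A*. *H3F3C* matched *H3F3B* at 95.2% over 1698 columns. Which of several matching places a read was given to depends on the aligner. Its handling of such reads is not given in the sources used here. Over the aligned columns, but for 1 gap, the reads of *H3F3A* and *H3F3AP4* therefore cannot be told apart. *H3F3AP6* and *H3F3BP1* had 5 and 23 mismatches to *H3F3A*, so reads over these bases can be told apart. How the reads were in fact divided among these rows was not tested.

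*H3F3A*, the H3.3 gene selected for its lower level, had 80 reads in NC 1 and 89 in NC 2, and 22 in si-circZFR 1 and 5 in si-circZFR 2. The exact Poisson 95% intervals of these counts, which cover counting error only, were 63.4 to 99.6, 71.5 to 110, 13.8 to 33.3 and 1.62 to 11.7. As scaled RPKM this was 6.42 and 7.23 in NC against 1.81 and 0.385 in si-circZFR, or 6.83 ± 0.574 against 1.10 ± 1.01 (SD, n = 2). Both si-circZFR libraries lay below both NC libraries, and si-circZFR 2 lay below si-circZFR 1 with count intervals that did not overlap. The log2FC was -1.99 ± 0.34 (SE), given without a test. Without si-circZFR 2 it was -1.46 and without si-circZFR 1 -2.49, and the pseudocount of 1 is large beside the lowest level: with a pseudocount of 0.1 the log2FC was -2.85. Lower mRNA per cell and fewer cells with the mRNA cannot be told apart in these bulk libraries.

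The copies of *H3F3A* held more of the reads than the gene itself. *H3F3AP4* had 485 reads in NC 1, 219 in NC 2, 103 in si-circZFR 1 and 51 in si-circZFR 2. *H3F3AP6* had 95, 118, 23 and 20 reads in the same order, and *H3F3BP1* had 89, 55, 14 and 2. In all 3 copies the groups did not overlap, and their log2FC values, described with no test because they may share reads with *H3F3A*, were -2.01 ± 0.45, -1.84 ± 0.19 and -2.74 ± 0.51 (SE). *H3F3AP2*, *H3F3AP3* and *H3F3AP5* had at most 2 reads in a library, and *H3F3AP1* was listed at 0. The number of *H3F3AP4* reads per *H3F3A* read was 6.06 in NC 1, 2.46 in NC 2, 4.68 in si-circZFR 1 and 10.2 in si-circZFR 2, so the division of reads between gene and copy was not constant within a group.

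**Figure D1:**
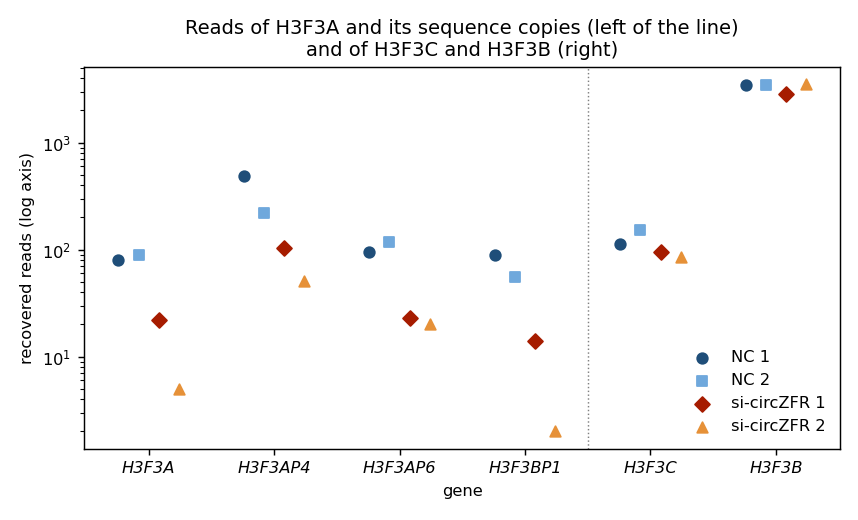
Recovered reads (log axis) of *H3F3A*, its 3 copies with more than 2 reads in a library, *H3F3C* and *H3F3B*, with 1 point per library. To the left of the dotted line, the si-circZFR libraries (diamonds and triangles) are below the NC libraries in each gene; to the right, *H3F3B* stays between 2835 and 3538 reads.

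With the reads of *H3F3A* and its 7 named copies summed and divided by the length of *H3F3A*, the level was 60.4 and 39.3 scaled RPKM in the NC libraries, against 13.5 and 6.00 after silencing. The sum was 752, 483, 164 and 78 reads, of which 10.6%, 18.4%, 13.4% and 6.41% lay on *H3F3A* itself. The summed log2FC was -2.30 ± 0.38 (SE), so the lower value was present with and without the division of reads among the copies.

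*H3F3B*, the other H3.3 gene, had 3474 and 3452 reads in NC and 2835 and 3538 in si-circZFR. Its scaled RPKM was 109.5 and 110.2 in NC and 91.4 and 106.9 in si-circZFR. The si-circZFR values were the lower ones and the groups did not overlap, with means of 109.8 ± 0.469 and 99.1 ± 10.9 (SD, n = 2). The log2FC was -0.15 ± 0.18 (SE) with a 95% interval of -0.60 to 0.30 and an FDR of 0.654, and it was 0.022 when libraries were scaled by their total reads alone. The *H3F3A* log2FC minus that of *H3F3B* was -1.84, again a description because *H3F3A* was selected for its own value.

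The share of *H3F3A* in the H3.3 level, taken per length, depended on its copies. The share of the *H3F3A* row in the summed *H3F3A* and *H3F3B* scaled RPKM was 5.54% and 6.16% in NC and 1.94% and 0.359% in si-circZFR. With the reads of the near copies added to both genes, the share was 34.8% and 25.4% in NC and 12.5% and 5.197% in si-circZFR. The summed H3.3 level was 115.9 and 117.4 scaled RPKM in NC against 93.2 and 107.2 in si-circZFR, a mean difference of -14.1%, and -31.8% with the copies added (173.5 and 154.3 against 108.0 and 115.4). How far the total H3.3 mRNA differed thus depended on which copies count as *H3F3A* mRNA. The scaling between libraries enters too. *H3F3B* held most of the sum without the copies, and its log2FC of -0.15 became 0.022 with libraries scaled by total reads. The sum was not taken under that scaling.

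*H3F3C*, a primate gene that arose as a copy of *H3F3B* and is known from the testis, had 114 and 152 reads in NC, against 95 and 86 in si-circZFR, with a log2FC of -0.51 ± 0.20 (SE, FDR 0.219). Whether these reads came from *H3F3C* or from the near-identical *H3F3B* was not tested. *H3F3BP2* was listed at 0.

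Among the 8 members other than *H3F3A*, 0 were called by limma (FDR under 0.05 and |log2FC| over 1), and limma called 0.0576% of all genes tested. Limma-voom on the recovered reads also called 0 of the 8, and it called 2.15% of all genes. At an unadjusted p under 0.05, limma gave 3 of the 8, beside 21.7% of all genes tested, and limma-voom also 3, beside 23.5%. These 3 were *H2AFZ* and *H2AFV*, lower in si-circZFR, and *H2AFJ*, higher. The groups did not overlap with si-circZFR lower in 4 of the 8 (28.1% of all genes tested) and with si-circZFR higher in 1 (28.1%). The median log2FC of the 8 was -0.15, against 0.0064 over all genes tested. Without NC 2, the log2FC was -0.51 for *H2AFZ*, -0.47 for *H2AFV* and 0.76 for *H2AFJ*. After a correction for gene length it was -0.49, -0.64 and 0.52 in the same order.

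**Figure D2:**
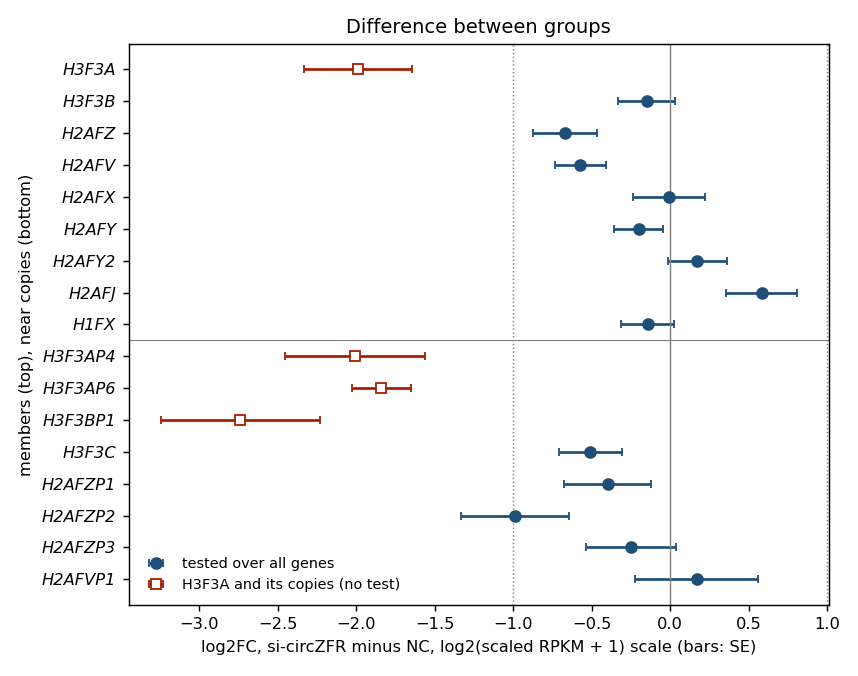
The log2FC (si-circZFR minus NC, on the log2(scaled RPKM + 1) scale) with its SE for the 9 members above the line and their near copies below it. Open squares are *H3F3A* and its copies, which range from -2.74 to -1.84 and were not tested; filled circles were tested over all genes, and the members among them range from -0.67 to 0.58 with 0 called.

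*H2AFZ*, which encodes H2A.Z.1, had the highest level of the 9 in NC. It was at 142.5 and 180.5 scaled RPKM in NC (2066 and 2585 reads) and at 103.2 and 97.6 in si-circZFR (1462 and 1477 reads). Both si-circZFR libraries lay below both NC libraries, and NC 2 lay further from NC 1 than the si-circZFR libraries lay from each other. The log2FC was -0.67 ± 0.20 (SE), the 95% interval -1.17 to -0.17 and the FDR 0.155.

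*H2AFV*, which encodes H2A.Z.2, a protein that differs from H2A.Z.1 at 3 residues, was at 23.4 and 27.4 scaled RPKM in NC (1032 and 1192 reads) and at 16.2 and 17.3 in si-circZFR (696 and 794 reads). The groups did not overlap here either. The log2FC was -0.57 ± 0.16 (SE) with a 95% interval of -0.97 to -0.17 and an FDR of 0.142, the lowest of the 8 members tested. Over the alternatives tried, the FDR of *H2AFZ* ranged from 0.0506 to 0.687 and that of *H2AFV* from 0.0584 to 0.647, so neither was called under any of them.

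The coding sequences of the H2A.Z pair differ at 67 of 129 codons. *H2AFZ* (chr4:99948088-99950275, minus strand, 5 exons) had 0% and *H2AFV* (chr7:44826889-44848126, minus strand, 5 exons) 1.95% of their windows of 100 bases elsewhere in the genome. The *H2AFZ* share of the summed level was 85.9% and 86.8% in NC and 86.5% and 84.97% in si-circZFR, with overlapping groups and a difference of means of -0.642 percentage points. The 2 genes' log2FC values differed by -0.099. The summed H2A.Z level was 165.9 and 207.9 scaled RPKM in NC and 119.4 and 114.9 in si-circZFR, a mean difference of -37.3%. With the reads of the near copies added to both genes, the *H2AFZ* share was 84.9% in both NC libraries and 84.5% and 80.9% in si-circZFR, so the groups no longer overlapped.

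The near copies of the H2A.Z genes held few reads beside *H2AFZ* and more beside *H2AFV*. *H2AFZ* held 95.8% to 97.2% of its family's reads in each library, and *H2AFV* 73.0% to 88.6%. In the order NC first, *H2AFZP2* had 56, 62, 39 and 15 reads (log2FC -0.99 ± 0.34 SE, FDR 0.185), *H2AFZP3* 27, 18, 13 and 25 (-0.25, FDR 0.638) and *H2AFZP1* 8, 7, 7 and 3 (-0.40, FDR 0.435). *H2AFVP1*, which is 96.7% identical to *H2AFV* over 661 aligned columns, had 133, 250, 149 and 294 reads (0.17, FDR 0.825), with the second library of each group above the first. *H2AFZP5* had at most 1 read in a library, and *H2AFZP4* and *H2AFZP6* were listed at 0. With the *H2AFVP1* reads added, the *H2AFV* log2FC was -0.44 and its groups were still apart, at 26.5 and 33.1 scaled RPKM in NC against 19.6 and 23.7.

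**Figure D3:**
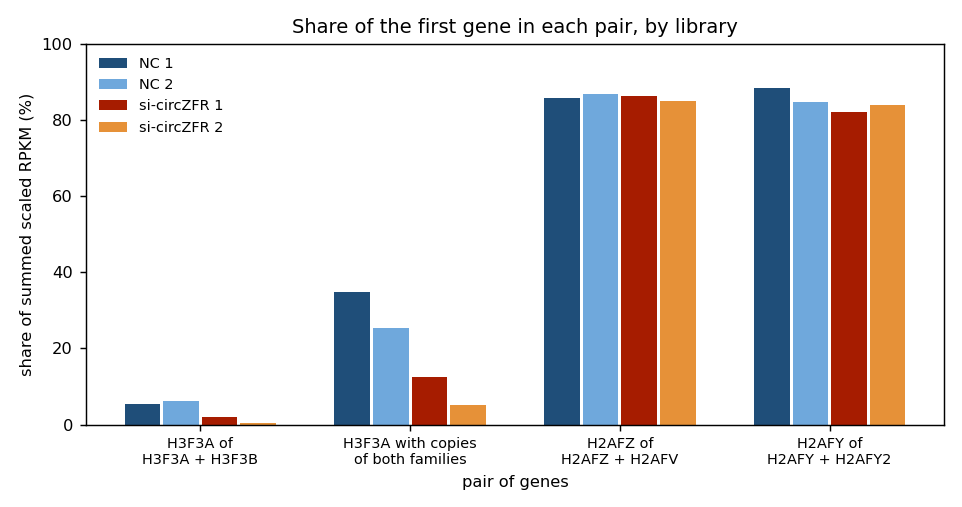
Share of the first gene in the summed scaled RPKM of a pair, in percent, with 1 bar per library. The *H3F3A* share is lower in both si-circZFR libraries with and without the near copies, the *H2AFZ* share without the near copies lies between 84.97% and 86.8% in the 4 libraries, and the *H2AFY* share lies between 82.2% and 88.4%.

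*H2AFX*, whose protein carries the phosphorylated serine known as gamma-H2AX at DNA breaks, was at 36.9 and 54.7 scaled RPKM in NC and at 41.8 and 47.7 in si-circZFR, so the NC values enclosed the others. The log2FC was -0.010 ± 0.23 (SE), with a 95% interval of -0.58 to 0.56 and an FDR of 0.986. Its sign changed with the setting: it was 0.26 without NC 2, 0.16 with libraries scaled by total reads and 0.095 after a correction for gene length.

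*H2AFY*, which encodes macroH2A1, was at 45.5 and 42.1 scaled RPKM in NC and at 39.1 and 36.8 in si-circZFR, and the groups did not overlap. Its log2FC was -0.20 ± 0.16 (SE, 95% interval -0.59 to 0.19, FDR 0.485). *H2AFY2*, which encodes macroH2A2, was at 5.99 and 7.57 in NC and at 8.49 and 7.01 in si-circZFR, with overlapping groups (log2FC 0.17 ± 0.19 SE, 95% interval -0.29 to 0.63, FDR 0.617). *H2AFY* made up 88.4% and 84.8% of the macroH2A sum in NC and 82.2% and 84.0% in si-circZFR.

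*H2AFJ*, a replacement H2A that is known to accumulate in senescent cells, was at 6.98 and 9.20 scaled RPKM in NC (300 and 391 reads) and at 10.5 and 14.8 in si-circZFR (442 and 666 reads). Both si-circZFR libraries were above both NC libraries, but they differed from each other by more than NC 2 differed from si-circZFR 1. The log2FC was 0.58 ± 0.23 (SE), the 95% interval 0.027 to 1.14 and the FDR 0.217. Without si-circZFR 2 the log2FC was 0.36. The gene length behind the RPKM of *H2AFJ* was 3667 bases, whereas the reference transcript has 620, so its level against other genes depends on the gene model.

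*H1FX*, which encodes the linker histone H1.10, was at 45.3 and 52.8 scaled RPKM in NC and at 46.5 and 41.9 in si-circZFR. The groups overlapped, and the log2FC was -0.14 ± 0.17 (SE, 95% interval -0.57 to 0.28, FDR 0.648), or 0.026 with libraries scaled by total reads.

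The order of levels per length in NC was *H2AFZ* (161.5 scaled RPKM, mean of 2), *H3F3B* (109.8), *H1FX* (49.0), *H2AFX* (45.8), *H2AFY* (43.8), *H2AFV* (25.4), *H2AFJ* (8.09), *H3F3A* (6.83) and *H2AFY2* (6.78). Neighbours in the run from *H1FX* to *H2AFY* had overlapping ranges, as had those in the run from *H2AFJ* to *H2AFY2*, while the other neighbours did not overlap. In si-circZFR the ranges of *H2AFZ* (100.4) and *H3F3B* (99.1) overlapped, *H2AFX* (44.7) and *H1FX* (44.2) came next with ranges that overlapped each other, and *H3F3A* (1.10) was last, below *H2AFY2* (7.75) with no overlap. This place of *H3F3A* rests on the reads given to its own row. With the reads of its copies added, its mean was 49.8 in NC, beside *H1FX* and with overlapping ranges, and 9.74 in si-circZFR, above *H2AFY2* and with overlapping ranges. The order also depends on the gene lengths behind the RPKM. They differ from the reference transcripts for members such as *H2AFY* (3431 against 1917 bases), *H2AFJ* (3667 against 620) and *H2AFZ* (1236 against 866).

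**Figure D4:**
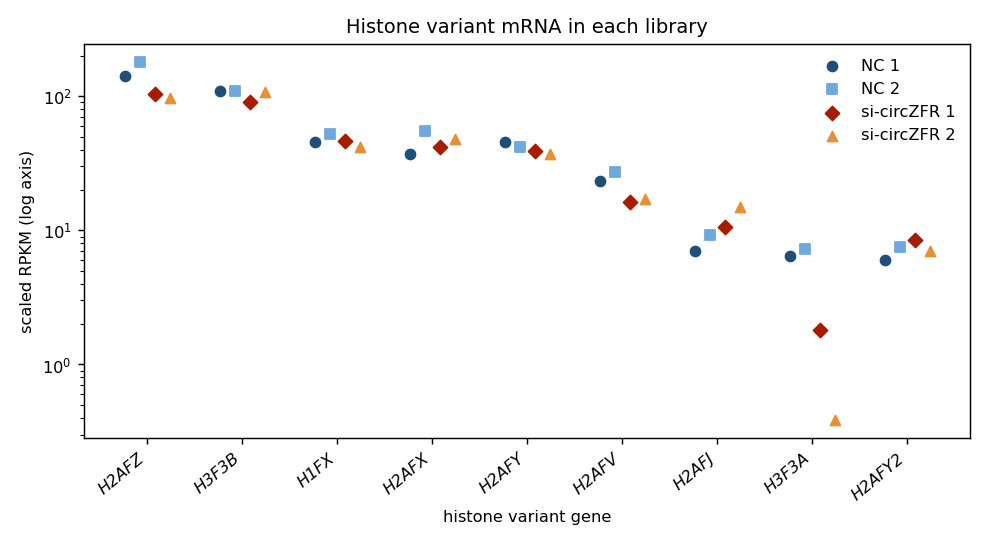
Scaled RPKM (log axis) of the 9 histone variant genes in each library, ordered by their mean in NC. *H3F3A* is at 0.385 and 1.81 in the si-circZFR libraries against 6.42 and 7.23 in NC; *H2AFZ* and *H2AFV* are lower and *H2AFJ* higher in both si-circZFR libraries, with 0 of these 3 called.

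The profile of *H3F3A* over the 4 libraries (log2 values centred on their mean) was compared with that of each gene tested by Euclidean distance. The 3 nearest, with the copies of *H3F3A* left out, were *RPL41P1* (distance 0.20), *RPL7AP50* (0.27) and *CKS1BP2* (0.29). *RPL41P1* was at 77.0 and 87.8 scaled RPKM in NC and 29.3 and 11.6 in si-circZFR, *RPL7AP50* at 31.0 and 26.4 against 9.11 and 4.27, and *CKS1BP2* at 10.8 and 11.3 against 4.25 and 1.59. All 3 are annotated as processed pseudogenes. Such rows were then looked at as a class, which was chosen after the values were seen: the 947 processed pseudogenes tested, matched by symbol and without the near copies above, had a median log2FC of -0.48, against 0.0064 over all genes tested. Their groups did not overlap with si-circZFR lower in 56.8% (28.1% of all genes tested). The 3 copies of *H3F3A*, as rows of this kind, and *H3F3A*, whose reads they may share, lay below the class median. The part of this class difference in the *H3F3A* values was not tested.

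Of the proteins that bring H3.3 to chromatin, 8 were listed and 8 tested, with 0 called (0.0576% of all genes tested) and a median log2FC of 0.14. Groups were apart in 2 (si-circZFR lower, 28.1% of all genes tested) and 3 (higher, 28.1%). *HIRA*, the chaperone that deposits H3.3 in active genes, was at 9.73 and 9.44 scaled RPKM in NC and at 6.65 and 5.90 in si-circZFR (log2FC -0.54 ± 0.16 SE, FDR 0.144). Of its partners, *UBN1* was at 9.52 and 7.05 against 12.1 and 12.3 (0.52 ± 0.19 SE, FDR 0.193) and *CABIN1* at 10.2 and 5.34 against 11.2 and 13.2 (0.65 ± 0.29 SE, FDR 0.264). *UBN2*, the paralog of *UBN1*, named here after its value was seen, had a log2FC of -0.048. *CABIN1* and *UBN1* have lengths of 7528 and 7311 bases in the tables and were lowest in NC 2, the library that differed from NC 1 with gene length. *ASF1A*, which hands H3-H4 to HIRA, had a log2FC of 0.26 (FDR 0.547), *DAXX*, the chaperone for repeats, -0.24 (FDR 0.390) and *ATRX*, its remodelling partner, 0.40 (FDR 0.322). *ATRX*, with a length of 11321 bases, was also lowest in NC 2.

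Of the carriers that H3.3 shares with replicative H3, CAF-1 included, 12 of 12 were tested, with 0 called (0.0576% of all genes tested). Their median log2FC was -0.024. Their groups were apart with si-circZFR lower in 4 and higher in 3, beside 28.1% of all genes tested in each direction. The 2 with the smallest p were *SUPT16H*, a subunit of the FACT complex, at 25.5 and 24.3 scaled RPKM in NC against 32.4 and 36.9 (0.46 ± 0.16 SE, FDR 0.185), and *MCM2*, a helicase subunit that binds H3-H4 at the fork, at 33.4 and 41.0 against 26.9 and 26.4 (-0.46 ± 0.17 SE, FDR 0.208).

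The enzymes and subunits that exchange H2A.Z numbered 22, all tested, with 0 called (0.0576% of all genes tested). They had 14 log2FC values below 0 (6849 of all 13885 genes tested) and a median of -0.096. Their groups were apart with si-circZFR lower in 9 and higher in 3, beside 28.1% of all genes tested in each direction. *ACTL6A*, an actin-like subunit of these and other remodellers, was at 18.2 and 25.6 scaled RPKM in NC against 12.9 and 14.2 (-0.64 ± 0.20 SE, FDR 0.168), and *RUVBL1*, a helicase subunit, at 29.8 and 37.8 against 22.4 and 25.4 (-0.48 ± 0.19 SE, FDR 0.219). The catalytic subunits *SRCAP* and *EP400* had log2FC values of -0.47 (FDR 0.259) and -0.058 (FDR 0.916), the H2A.Z-binding subunits *VPS72* and *ZNHIT1* of the exchange complex -0.32 (FDR 0.429) and -0.35 (FDR 0.353), and *ANP32E*, which removes H2A.Z, 0.060 (FDR 0.895). *ACTL6A*, *RUVBL1*, *VPS72* and *ZNHIT1*, at 1906, 2227, 1564 and 1189 bases, were highest in NC 2, the library that differed from NC 1 with gene length. *SRCAP* and *EP400*, at 10582 and 12422 bases, were lower in NC 2 than in NC 1. The part of the length trend in the list's values was not tested.

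The kinases, phosphatases and readers of H2AX numbered 22, of which 21 were tested and 0 called (0.0576% of all genes tested). They had 8 log2FC values below 0 (6849 of all 13885 genes tested), 13 above 0 and a median of 0.040. Their groups were apart with si-circZFR lower in 7 and higher in 5, beside 28.1% of all genes tested in each direction. *RAD50*, part of the MRN complex at breaks, was at 13.8 and 9.79 scaled RPKM in NC against 18.2 and 17.9 (0.59 ± 0.20 SE, FDR 0.175), and *UIMC1*, which recruits BRCA1 to ubiquitin at breaks, at 6.09 and 5.43 against 8.13 and 9.25 (0.52 ± 0.16 SE, FDR 0.164). *ATM*, a kinase of H2AX, had a log2FC of 0.54 (FDR 0.253) and *MDC1*, the reader of its mark, 0.18 (FDR 0.620). *RAD50*, *ATM* and *MDC1*, at 6597, 13275 and 7368 bases, were lowest in NC 2, as was *UIMC1* (2800 bases). NC 2 was the library that differed from NC 1 with gene length. The value farthest from 0 in the list, looked up after the values were seen, was -0.61, of the phosphatase subunit *PPP4C*.

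Among the chaperones of linker histones and the HMG proteins that compete with them, 13 of 13 were tested, with 0 called (0.0576% of all genes tested). They had 10 log2FC values below 0 (6849 of all 13885 genes tested) and a median of -0.19. Their groups were apart with si-circZFR lower in 6 and higher in 1, beside 28.1% of all genes tested in each direction. *HMGB1* was at 23.8 and 27.0 scaled RPKM in NC against 18.6 and 18.02 (-0.45 ± 0.16 SE, FDR 0.185) and *HMGA2* at 14.4 and 15.95 against 11.4 and 10.9 (-0.41 ± 0.15 SE, FDR 0.206). *PTMA*, the acidic protein prothymosin alpha that binds H1, had a log2FC of -0.13 (FDR 0.774), *SET* 0.028 (FDR 0.954) and *HMGN1* -0.082 (FDR 0.827).

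Of 14 other variant histones, 12 were listed at 0 in all 4 libraries, and a count of 0 allows up to 3 reads in a library. These were testis-specific or germline histones such as *HIST1H1T*, *H1FOO* and *HIST1H2BA*. The others were *H3F3C*, described above, and *CENPA*, the centromeric H3, at 10.3 and 11.6 scaled RPKM in NC against 9.63 and 8.33 in si-circZFR (-0.26 ± 0.16 SE, FDR 0.397).

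**Figure D5:**
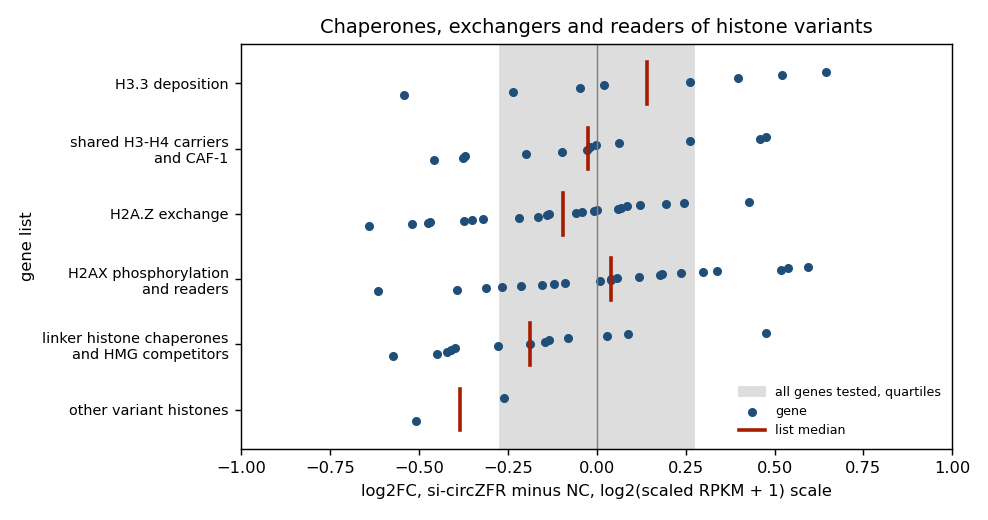
The log2FC (si-circZFR minus NC, on the log2(scaled RPKM + 1) scale) of each tested gene in the 6 lists, with the list's median as a red bar and the quartiles of all genes tested (-0.27 to 0.27) in grey. List medians run from -0.38 (2 genes) to 0.14, and 0 genes of the lists were called.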

How the data were processed

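RNA was sequenced on the Ion Proton from 2 NC and 2 si-circZFR libraries, and groups were taken from the sample labels. The authors deposited RPKM values per gene, and the article states an alignment to hg38 while the submitters' processing notes name GRCh37. Reads were recovered gene by gene, from the shortest length that turns the 4 RPKM values into whole reads, so they are the fewest that fit. The tolerance was 0.02 reads, and 24282 of 24289 genes above 0 were recovered. Library totals came from small RNAs of known length.

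Libraries were scaled to each other with a trimmed mean (30% of log ratios and 5% of mean levels left out). Limma was run on genes that reached 1 RPKM in 2 or more libraries, and it was run on log2(scaled RPKM + 1) with a trended prior. Genes were called at FDR under 0.05 (Benjamini-Hochberg over all genes tested) with |log2FC| over 1. This took the place of the count test in the article's methods. It was also run on simulated data without a length trend, which cannot show how it performs on these libraries. Transcripts and positions came from the GENCODE and RefSeq annotation of GRCh38, not from the expression tables, and copies were found with blastn (at least 85% identity). Alternatives covered scaling, filter, pseudocount, limma-voom, the trend, the replicate block, gene length, each library left out and near copies added.

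The members and lists were chosen with earlier results of these data known, and results for 1 of the 10 members and for 1 marker are not reported here. Named were the members, their copies, *ZFR*, listed chaperones and exchangers, the 2 smallest p per list, and the 3 nearest profiles. Versions were blastn 2.17.0, biopython 1.88, limma 3.58.1 (R 4.3.3), pandas 2.3.3, scipy 1.17.1 and matplotlib 3.10.9.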

Additional observations from a re-analysis of the deposited data

How the results depend on the processing

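The count of genes called changed with the setting and with the libraries kept. It was 8 as reported, 0 without a filter, 179 with a filter of CPM above 1 in at least 2 libraries, 2 with a pseudocount of 0.1, 299 by limma-voom, 1 without the trended prior, 14 after the length correction, and 0 to 937 when a library was left out (937 without NC 1, 0 without NC 2, si-circZFR 1 or si-circZFR 2). When a library is left out, the lone library of its group is assumed to vary like the other group. The cause of these changes was not tested. The number of members called was 0 in all 14 alternatives, and of 112 member values 106 kept their direction and side of the threshold. The others were *H3F3B* (0.022), *H2AFX* (0.16) and *H1FX* (0.026) with libraries scaled by total reads, which moved the median log2FC of all genes from 0.0064 to 0.15, and *H2AFX* after the length correction (0.095), without NC 2 (0.26) and without si-circZFR 1 (0.097), in a range of -0.29 to 0.26 when a library was left out.

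The *H3F3A* log2FC was -2.85 with a pseudocount of 0.1 and -2.98 by limma-voom, and -2.49 to -1.46 when a library was left out. Its difference from *H3F3B* was -2.69 and -2.83 in the same fits, and -2.46 to -1.21 when a library was left out. After the length correction, the *H3F3A* log2FC was -1.75 and its difference from *H3F3B* -1.59. The difference in *H3F3A* share was -4.70 points as reported, -21.3 with the near copies added and -5.49 to -3.91 when a library was left out. For the *H2AFZ* share it was -0.642, -2.18 and -1.39 to 0.10. Of the listed genes, 0 were called except without NC 1, where *CABIN1* was (log2FC 1.05, FDR 0.0398), so that count ran from 0 to 1.

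The labels do not say whether the replicate numbers pair the libraries. Deviations from the group means correlated at 0.069 between NC 1 and si-circZFR 1, a value across genes that cannot show how the libraries were prepared. With the replicate block, 63 genes were called, and 0 of the members.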
